A study of Homo sapiens with 12 samples.

Results

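The aminoacyl-tRNA synthetases examined here were 35 human genes, 19 for enzymes of the cytosol and 16 for enzymes of mitochondria, taken from a list of symbols and matched to Ensembl identifiers of the deposited table. All 35 were found among its 20036 genes. The cells were MV-4-11, an established acute myeloid leukemia line labelled WT, and total RNA gave 3 libraries each of cells kept for 48 h with the vehicle DMSO, with eliglustat (ELI), with venetoclax (ABT) or with the 2 drugs together (Comb). Eliglustat inhibits glucosylceramide synthase and venetoclax inhibits the survival protein BCL2; no source used here gives the doses. All libraries are of this 1 line and no label names separate cultures, so that p-values reflect the spread among these libraries alone, and that spread can be technical. The question addressed is whether transcripts of the cytosolic and the mitochondrial enzymes moved together or apart across the 4 groups.

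A synthetase joins an amino acid to its tRNA, the step that sets the genetic code. Animal cells keep separate nuclear genes for most cytosolic and mitochondrial enzymes, while the GARS1 and KARS1 genes each serve both compartments and EPRS1 encodes a bifunctional enzyme that charges glutamate and proline tRNAs. Several cytosolic enzymes sit in a large multi-synthetase complex held by the scaffold proteins AIMP1, AIMP2 and EEF1E1. Many cytosolic synthetase genes are known targets of ATF4, the transcription factor of the integrated stress response, which binds composite elements related to TGATGNAA; WARS1 is also known to be induced by interferon gamma.

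RefSeq promoter windows (GRCh38.p14, 250 bases before to 50 bases after the start site) matched 30 of the 35 genes, with 39 windows. The ATF4-type letters TGATGNAA, searched on both strands (TTNCATCA on the other), stood in 3.62% of 35116 windows of the same length. Counted by window as well, they stood in 7 of 21 cytosolic (33.3%) and 1 of 18 mitochondrial windows (5.56%). Counted by gene, they were present in 7 of 16 cytosolic genes that had a window and in 1 of 14 mitochondrial ones. The full form TGATGCAA stood in 0.866% of all windows, in 6 of 21 cytosolic windows (28.6%) and in none of the mitochondrial windows. By gene this was 6 of the 16 cytosolic genes and none of the 14 mitochondrial genes. Any overlap of a match with another motif was not searched. The 30 bases around each match are printed on the gene's strand with the matched letters in capitals, because the genes that hold them did not move in 1 direction in the comparisons that follow. GARS1, MARS1 and AARS1 were picked by the rule for named genes, and the other 5 were added after their values were seen.
GARS1, chr7:30594834-30594863, plus strand: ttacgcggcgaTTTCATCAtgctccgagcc
MARS1, chr12:57488053-57488082, plus strand: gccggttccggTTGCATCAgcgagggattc
AARS1, chr16:70289675-70289704, minus strand: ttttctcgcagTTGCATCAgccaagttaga
NARS1, chr18:57621804-57621833, minus strand: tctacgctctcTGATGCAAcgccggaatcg
TARS1, chr5:33440956-33440985, plus strand: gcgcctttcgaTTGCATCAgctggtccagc
IARS1, chr9:92293692-92293721, minus strand: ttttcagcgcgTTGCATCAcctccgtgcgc
CARS1, chr11:3057407-3057436, minus strand: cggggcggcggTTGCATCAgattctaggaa
YARS2, chr12:32756076-32756105, minus strand: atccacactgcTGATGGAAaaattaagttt
Counted from the start site, the match began at position -33 in GARS1, -4 in MARS1 and -187 in AARS1. A match describes letters in a window and not a bound site.

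The unit is FPKM, the reads of a gene scaled by its length and by the reads of the library, and the reads recovered from it came to 17259889 to 21082288 per library. Libraries numbered 1 of DMSO, ELI and ABT stood apart from the others of their group along GC content: Spearman's rho across genes between GC content and the deviation from the group mean was -0.79, -0.70 and -0.70 in them, 0.81 in DMSO replicate 2 and -0.29 to 0.26 in the Comb libraries. Mitochondrially encoded transcripts took 5.65 to 6.96% of reads in DMSO, 5.02 to 5.79% in ELI, 6.41 to 7.37% in ABT and 5.57 to 5.66% in Comb. Defining markers of the myelomonocytic line were present, with CD33 at 22.6 to 27.0 FPKM and SPI1 at 97.3 to 123.0 FPKM, whereas MPO was low at 0.377 to 1.57 FPKM. Of 10 such markers 3 rose and 3 fell under eliglustat, beside 16.4% higher and 19.8% lower of all genes. LYZ was among those that fell (-0.97, limma adjusted p = 2.7e-06). In Comb against ABT 4 of the 10 markers rose and 3 fell, beside 35.4% higher and 31.7% lower of all genes. MEIS1 differed by 0.64 (5.3e-05), FLT3 by 0.59 (0.00085) and MPO by -0.60 (0.00015). The range of MPO crossed the limit of 1 FPKM in 3 libraries used for testing. It can therefore have entered the test through the groups in which it was higher. Of 9 markers of other cell types, 7 stayed at or under 0.0406 FPKM (HBB and HBA1 at 0), and KRT18 (1.45 to 5.00 FPKM) and PECAM1 (11.0 to 19.0 FPKM) were detected. Under eliglustat PECAM1 was called higher and KRT18 lower, and under Comb against DMSO likewise; the part of either marker list in the synthetase results was not tested. With RNA from whole cultures, fewer cells of a type and less RNA per cell cannot be told apart.

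In 13 of 16 pairs of genes for the same amino acid the cytosolic transcript was the more abundant per length in DMSO. IARS1, HARS1 and CARS1 were below their mitochondrial counterparts in FPKM. The gene lengths that the FPKM values imply were 22418 bases for IARS1 and 4135 for IARS2, and 14155 for HARS1 and 3719 for HARS2. In DMSO, IARS1 had 6304 to 6866 reads against 3061 to 3207 for IARS2. HARS1 had 1573 to 2005 reads against 619 to 765 for HARS2. CARS1 was below CARS2 in reads too. The orders by FPKM that follow rest on such lengths. Threonyl-tRNA synthetase TARS1 was the highest in DMSO at 88.6 FPKM on average, followed by FARSA, the catalytic subunit of phenylalanyl-tRNA synthetase, at 83.1 ± 11.1 FPKM (SD, n = 3). KARS1 (66.6 FPKM) and QARS1 (62.1 FPKM) came next, and CARS1 (7.52 FPKM) and HARS1 (6.80 FPKM) were the lowest of the cytosolic genes. In DMSO the ranges of TARS1 (68.2 to 111.0 FPKM) and FARSA (71.8 to 94.0 FPKM) overlapped, as did those of KARS1 (65.5 to 67.2 FPKM) and QARS1 (52.9 to 67.7 FPKM), and the first pair lay above the second. Among mitochondrial enzymes isoleucyl-tRNA synthetase IARS2 stood at 39.9 FPKM in DMSO and every other member at 10.7 FPKM or less. SARS2, seryl-tRNA synthetase of mitochondria, was close to the limit of 1 FPKM in 3 libraries used for testing (0.613 to 1.20 FPKM), so its place among the tested genes rested on DMSO and ABT libraries. VARS2 was at or under 0.0857 FPKM in all libraries and was not tested, which left 19 cytosolic and 15 mitochondrial genes. HARS1 (chr5:140673904-140691862, minus strand) and HARS2 (chr5:140691426-140699318, plus strand) overlap in GENCODE 29 (GRCh38), and since no strand information is given for the counting, reads of the overlap cannot be assigned to either.

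**Figure D1:**
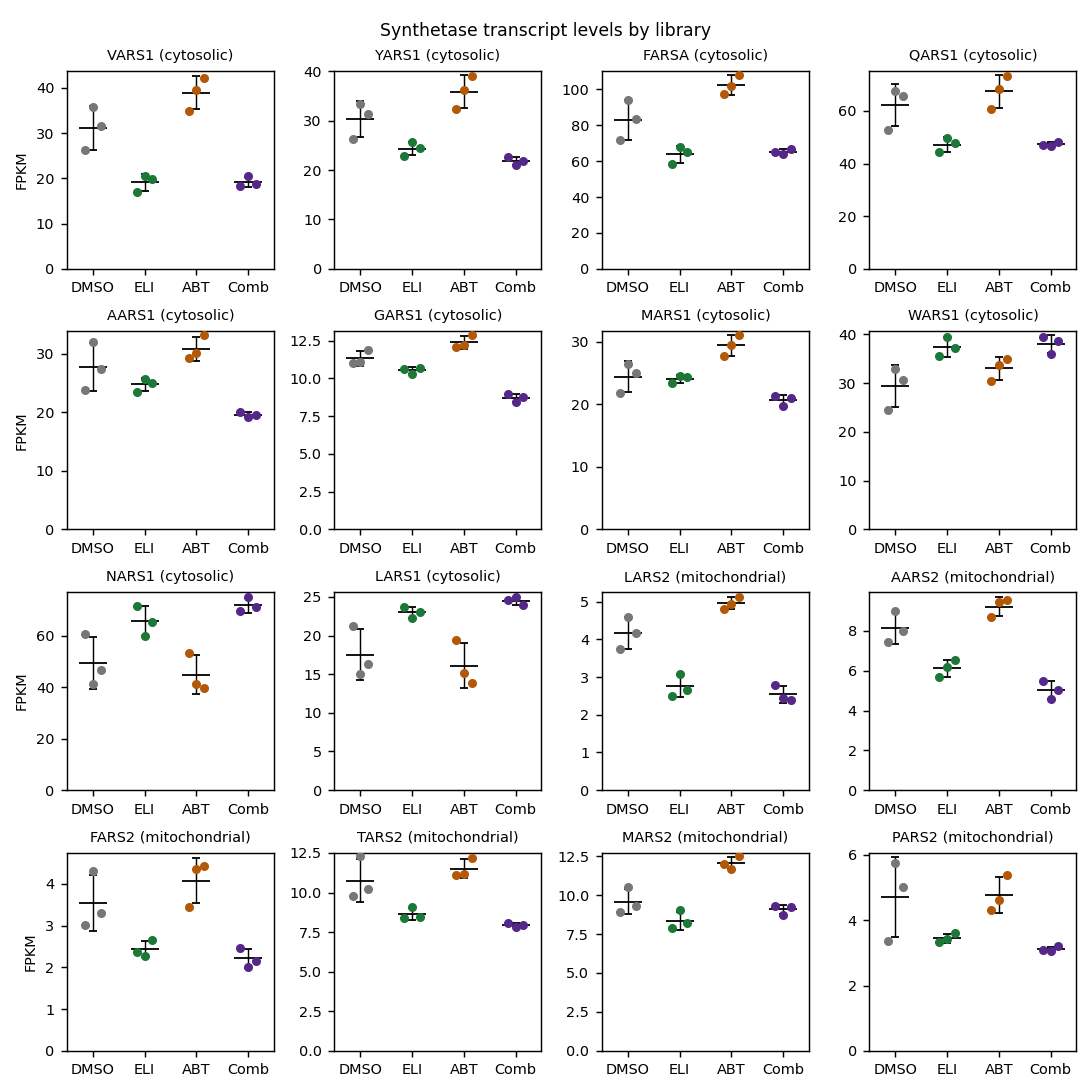
FPKM of 16 synthetase genes (vertical axes, starting at 0) in each library (points) of the 4 groups (horizontal axes); bars give the group mean and SD, n = 3. VARS1, LARS2 and AARS2 are lower in every ELI and Comb library than in every DMSO and ABT library, LARS1 is higher, and GARS1 and AARS1 are lowest in Comb.

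Eliglustat alone was accompanied by lower transcripts of several mitochondrial synthetases and by a split among the cytosolic ones. With limma on log2(FPKM + 1), which understates changes of low genes, and Benjamini-Hochberg adjustment over 9959 genes, 36.1% of all genes passed an adjusted p of 0.05 (were called), 16.4% higher and 19.8% lower. Of the 19 cytosolic synthetases 3 rose and 4 fell, a share near that background, with a median difference of -0.02. Of the 15 mitochondrial ones none rose and 6 fell, with a median of -0.24 against 0.01 over all genes tested. At an unadjusted p under 0.05, 10 mitochondrial genes were lower and none higher, and voom on recovered reads also gave none higher. The share of all genes at an unadjusted p was not counted, here or in the comparisons that follow. Such counts therefore have no background beside them, and voom on the same libraries is not separate support. Without the 4 libraries numbered 1 the counts were 6 higher and 5 lower for the cytosol and 0 higher and 8 lower for mitochondria, beside 56.0% of all genes.

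Valyl-tRNA synthetase VARS1 (chr6:31777518-31795953), a cytosolic enzyme, showed the lowest difference. Its levels were 26.2, 35.7 and 31.5 FPKM in DMSO, 17.0, 20.6 and 19.8 FPKM in ELI, 35, 39.5 and 42.2 FPKM in ABT and 18.3, 20.5 and 18.8 FPKM in Comb. Every ELI and Comb library lay below every DMSO and ABT library. The log2 difference of ELI from DMSO was -0.67 (SE 0.11, limma adjusted p = 0.00096). Glutaminyl-tRNA synthetase QARS1 averaged 62.1 FPKM in DMSO and 47.2 FPKM in ELI, with no overlap of libraries (-0.38, SE 0.10, limma adjusted p = 0.0097).

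FARSA (chr19:12922479-12934037) was measured at 71.8, 94.0 and 83.6 FPKM in DMSO, 58.5, 68.1 and 64.9 FPKM in ELI, 97.2, 102.0 and 108.0 FPKM in ABT and 65.0, 64.0 and 66.7 FPKM in Comb. All ELI and Comb libraries were below all DMSO libraries, and all ABT libraries were above them. The difference of ELI from DMSO was -0.37 (SE 0.09, limma adjusted p = 0.0089), a call lost with only the 6 libraries compared (0.059). Tyrosyl-tRNA synthetase YARS1 (chr1:32775237-32818153) stood at 26.2, 33.3 and 31.3 FPKM in DMSO, 22.9, 25.7 and 24.5 FPKM in ELI, 32.3, 36.3 and 39.0 FPKM in ABT and 22.7, 21.1 and 21.8 FPKM in Comb. Here too ELI and Comb were below DMSO in every library, whereas ABT overlapped DMSO. YARS1 was called lower with a difference of -0.30 (SE 0.09, limma adjusted p = 0.029), a call that was lost without DMSO replicate 2 (0.10), DMSO replicate 3 (0.095), ELI replicate 1 (0.11) or ELI replicate 3 (0.07). FARSB, the other subunit of the phenylalanine enzyme, was at 16.2 FPKM in DMSO and 16.7 FPKM in ELI (difference 0.04, SE 0.08, limma adjusted p = 0.67).

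Tryptophanyl-tRNA synthetase WARS1 (chr14:100333788-100376805) was among the 3 cytosolic genes that rose. It measured 24.5, 32.9 and 30.7 FPKM in DMSO, 35.5, 39.5 and 37.2 FPKM in ELI, 30.4, 33.7 and 34.9 FPKM in ABT and 39.4, 36.0 and 38.7 FPKM in Comb. ELI and Comb lay above DMSO and ABT in every library. WARS1 rose by 0.35 (SE 0.10, limma adjusted p = 0.018), a call lost without ELI replicate 2 (0.059) or with only the 6 libraries compared (0.076).

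Leucyl-tRNA synthetase LARS1, which also acts as a leucine sensor for mTORC1, and asparaginyl-tRNA synthetase NARS1 were the other members that rose. LARS1 measured 21.3, 15 and 16.3 FPKM in DMSO and 23.7, 22.3 and 23.1 FPKM in ELI, with no overlap (0.39, SE 0.13, limma adjusted p = 0.033). NARS1 measured 60.9, 41.1 and 46.6 FPKM in DMSO and 71.6, 60.0 and 65.4 FPKM in ELI, where DMSO replicate 1 lay above the lowest ELI library (0.41, SE 0.14, limma adjusted p = 0.037). Leaving out a library ended both calls in several cases. For LARS1 these were DMSO replicate 2 (0.13) or 3 (0.11) and ELI replicate 1 (0.098), 2 (0.055) or 3 (0.081). For NARS1 they were DMSO replicate 2 (0.14) or 3 (0.11), ELI replicate 1 (0.13) or 3 (0.087), and Comb replicate 1 (0.052), 2 (0.051) or 3 (0.053).

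Same-numbered libraries of DMSO, ELI and ABT deviated together across genes, although no label states that they are paired. A fit of those 9 libraries with the replicate number as a block was therefore also made. In that fit, which differs from the first in both the block and the absence of Comb libraries, 53.0% of all genes were called (27.2% higher and 25.9% lower). There TARS1 (0.32, limma adjusted p = 0.0029), arginyl-tRNA synthetase RARS1 (0.34, 0.0027) and EPRS1 (0.32, 0.026) were also called higher, which made 6 higher and 4 lower of 19. The mitochondrial enzymes EARS2 (-0.24, 0.026), CARS2 (-0.23, 0.016) and PARS2 (-0.34, 0.020) were added to those called lower, which made 9 of 15.

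LARS2, leucyl-tRNA synthetase of mitochondria (chr3:45388506-45549421), showed the lowest difference of that compartment. Its levels were 3.74, 4.60 and 4.16 FPKM in DMSO, 2.51, 3.08 and 2.67 FPKM in ELI, 4.82, 4.95 and 5.12 FPKM in ABT and 2.79, 2.44 and 2.39 FPKM in Comb. The ELI and Comb libraries were below DMSO throughout, and the ABT libraries above it. LARS2 fell by 0.46 under eliglustat (SE 0.08, limma adjusted p = 0.0014). Its cytosolic counterpart LARS1 rose in the same comparison.

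AARS2, mitochondrial alanyl-tRNA synthetase (chr6:44299654-44313326), measured 7.42, 9.01 and 8.01 FPKM in DMSO, 5.67, 6.21 and 6.52 FPKM in ELI, 8.68, 9.44 and 9.56 FPKM in ABT and 5.48, 4.58 and 5.03 FPKM in Comb. Every Comb library was below every ELI library, which in turn was below every DMSO library. AARS2 fell by 0.36 under eliglustat (SE 0.08, limma adjusted p = 0.0071). LARS2, AARS2, QARS1 and VARS1 kept their calls for ELI against DMSO under all 23 alternative settings. With only the 6 libraries compared, the calls of FARSA, YARS1, WARS1, LARS1, NARS1, TARS2, SARS2 and WARS2 in this comparison were lost. Those of LARS1 and NARS1 were also lost with no filter on low values (limma adjusted p = 0.057 and 0.064).

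TARS2 (threonine; chr1:150487364-150507609) measured 9.76, 12.3 and 10.2 FPKM in DMSO, 8.38, 9.06 and 8.48 FPKM in ELI, 11.1, 11.2 and 12.2 FPKM in ABT and 8.08, 7.84 and 7.92 FPKM in Comb. The Comb libraries were the lowest, then ELI, without overlap with DMSO. TARS2 fell by 0.28 (SE 0.08, limma adjusted p = 0.019), a call lost without DMSO replicate 2 (0.057), ELI replicate 1 (0.07) or ELI replicate 3 (0.064). FARS2 (phenylalanine; chr6:5261044-5829192) measured 3.02, 4.31 and 3.30 FPKM in DMSO, 2.37, 2.28 and 2.65 FPKM in ELI, 3.45, 4.35 and 4.43 FPKM in ABT and 2.47, 2.02 and 2.16 FPKM in Comb. ELI and Comb overlapped each other and lay below DMSO. FARS2 fell by 0.40 (SE 0.11, limma adjusted p = 0.017), a call lost without DMSO replicate 2 (0.063), ELI replicate 1 (0.055) or ELI replicate 2 (0.053).

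SARS2 and WARS2 (tryptophan) were the remaining mitochondrial members called lower, each with a difference of -0.26 (limma adjusted p = 0.025 and 0.032). SARS2 reached the tested genes through the groups in which it was higher, and without it 5 of 14 mitochondrial genes fell, with a median of -0.23. Both calls depended on single libraries. For SARS2 they were lost without DMSO replicate 2 (0.062) or 3 (0.088) or ELI replicate 2 (0.088) or 3 (0.077). For WARS2 they were lost without DMSO replicate 1 (0.054) or 3 (0.12) or ELI replicate 1 (0.055), 2 (0.11) or 3 (0.051). MARS2, NARS2, IARS2, HARS2, RARS2 and YARS2 did not pass in this comparison, with differences from -0.18 to 0.09. Leaving out 1 library moved the count of called cytosolic genes to 4 (without DMSO replicate 2 or 3, or ELI replicate 1 or 3) or 11 (without DMSO replicate 1), and that of mitochondrial genes to 3 (without DMSO replicate 2 or any ELI library).

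Venetoclax alone gave no synthetase call in either direction with limma, in a comparison in which 0.151% of all genes passed, all of them lower. At an unadjusted p under 0.05, 6 cytosolic and 2 mitochondrial members were higher and none lower, with no share of all genes counted at that threshold. Fitting the recovered reads of the same libraries with voom gave the same counts. Libraries of ABT lay above those of DMSO without overlap for 5 of 19 cytosolic and 3 of 15 mitochondrial genes, beside 7.73% of all genes, and below them for none, beside 5.8%. The genes above were KARS1, GARS1, MARS1, HARS1, FARSA, LARS2, EARS2 and MARS2. Median differences were 0.12 for the cytosolic and 0.04 for the mitochondrial genes, against -0.02 over all genes.

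MARS2, methionyl-tRNA synthetase of mitochondria (chr2:197705369-197708387), had the smallest p of these. Its levels were 8.94, 10.5 and 9.31 FPKM in DMSO, 7.91, 9.02 and 8.18 FPKM in ELI, 12, 11.7 and 12.5 FPKM in ABT and 9.28, 8.75 and 9.24 FPKM in Comb. The ABT libraries stood above all the others. The difference of ABT from DMSO was 0.31 (SE 0.07, limma adjusted p = 0.13). With the replicate block in 9 libraries, where 23.6% of all genes were called, 7.97% higher and 15.6% lower, MARS2 passed (0.31, adjusted p = 0.019). So did KARS1 (0.15, 0.045), YARS1 (0.24, 0.023), MARS1 (0.26, 0.020), FARSA (0.30, 0.016) and VARS1 (0.32, 0.016), with no member called lower. Without DMSO replicate 2 and with no block, MARS2 (0.038), MARS1 (0.045), FARSA (0.04) and VARS1 (0.046) were called. Without the 4 libraries numbered 1, no member was called, beside 1.48% of all genes.

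**Figure D2:**
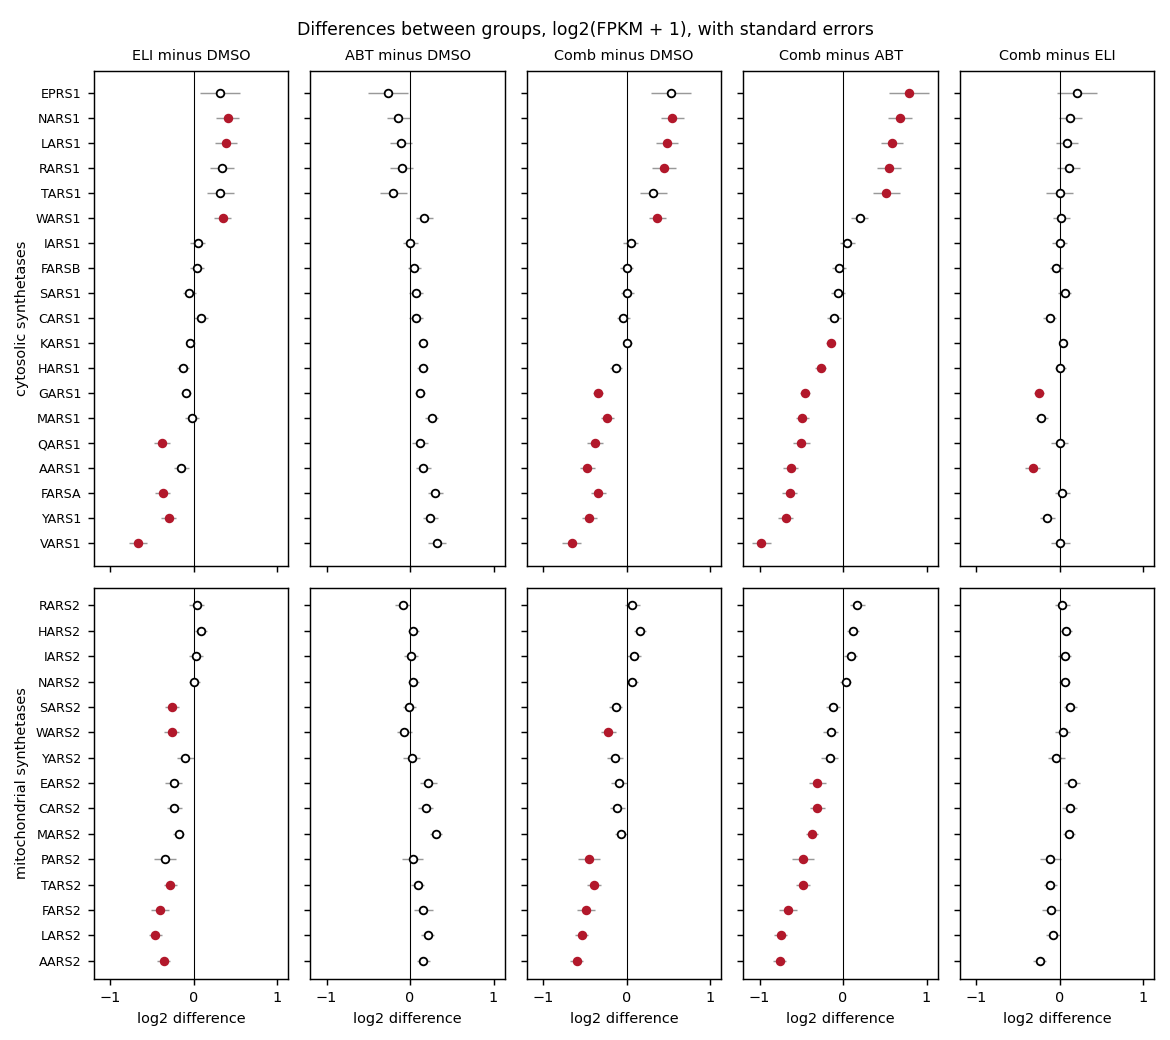
Log2 differences (horizontal axes, log2(FPKM + 1)) between groups for the 19 cytosolic (top) and 15 mitochondrial (bottom) synthetases tested, with standard errors; filled points passed the limma test. In Comb minus ABT the cytosolic genes run from -0.98 (VARS1) to 0.79 (EPRS1) and the mitochondrial ones from -0.76 (AARS2) to 0.17 (RARS2), and no filled point appears in ABT minus DMSO.

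Both drugs together against DMSO gave 4 cytosolic synthetases higher and 7 lower of 19, beside 25.7% higher and 25.8% lower among all genes (51.5% in all). Of 15 mitochondrial enzymes none rose with limma (1 at an unadjusted p under 0.05, none adjusted with voom) and 6 fell. The medians were 0.00 for the cytosolic and -0.13 for the mitochondrial genes, against 0.02 for all genes; with the trend on GC content and gene length removed they were -0.12 and -0.09, so that the order of the compartments turned. This comparison shares its DMSO libraries with those of the single drugs. Without the 4 libraries numbered 1 it gave 7 higher and 7 lower cytosolic and 1 higher and 7 lower mitochondrial genes, beside 67.2% of all genes.

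The cytosolic members that rose were NARS1 (0.55, SE 0.14, limma adjusted p = 0.0066), LARS1 (0.48, 0.0084), RARS1 (0.45, 0.018) and WARS1 (0.37, 0.0083). RARS1 lost its call without DMSO replicate 2 (0.076), DMSO replicate 3 (0.061) or Comb replicate 2 (0.063). VARS1 (-0.66), AARS1 (-0.47), YARS1 (-0.45), QARS1 (-0.38), GARS1 (-0.34), FARSA (-0.34) and MARS1 (-0.23) fell, with limma adjusted p from 0.00049 to 0.024. The call of MARS1 was lost without DMSO replicate 2 (0.083) or 3 (0.078) or Comb replicate 2 (0.092) or 3 (0.051). It was also lost with only the 6 libraries compared (0.079).

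Among the mitochondrial enzymes AARS2 (-0.60), LARS2 (-0.54), FARS2 (-0.49), PARS2 (-0.45), TARS2 (-0.39) and WARS2 (-0.22) fell, with limma adjusted p from 0.00012 to 0.049. PARS2, prolyl-tRNA synthetase (chr1:54756898-54764514), measured 3.37, 5.74 and 5.03 FPKM in DMSO, 3.33, 3.43 and 3.60 FPKM in ELI, 4.31, 4.61 and 5.39 FPKM in ABT and 3.09, 3.06 and 3.20 FPKM in Comb. Comb was below every other library, while ELI overlapped DMSO through DMSO replicate 1. The PARS2 call was lost without DMSO replicate 2 (0.053) or 3 (0.052). The WARS2 call, at the threshold with an adjusted p of 0.049, was lost in 16 of 21 alternative settings, and without DMSO replicate 3 the adjusted p was 0.17.

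Adding eliglustat to venetoclax (Comb against ABT) showed the widest spread among the members. Of all genes 35.4% were higher and 31.7% lower, 67.2% in all. Of the cytosolic enzymes 5 rose and 9 fell, and of the mitochondrial ones none rose (none at an unadjusted p under 0.05, and none with voom) and 8 fell. In all 14 of 19 and 8 of 15 members were called. Without the 4 libraries numbered 1 the counts were 5 higher and 10 lower, and 2 higher and 9 lower, beside 73.4% of all genes.

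Higher in Comb than in ABT were EPRS1 (0.79, SE 0.24, limma adjusted p = 0.012), NARS1 (0.68, 0.0012), LARS1 (0.59, 0.0016), RARS1 (0.55, 0.0044) and TARS1 (0.52, 0.014). The TARS1 call was lost without ABT replicate 2 (0.06) or 3 (0.053). EPRS1 measured 36.0, 23.8 and 22.9 FPKM in ABT and 44.4, 50.1 and 48.4 FPKM in Comb, without overlap, but its DMSO values of 49.7, 23.0 and 30.0 FPKM covered nearly that whole range, with the highest in DMSO replicate 1. Lower were VARS1 (-0.98, SE 0.11, limma adjusted p = 2e-05), YARS1 (-0.69), FARSA (-0.64), AARS1 (-0.63), QARS1 (-0.50), MARS1 (-0.49), GARS1 (-0.46), HARS1 (-0.27) and KARS1 (-0.15, 0.030). The call of KARS1, lysyl-tRNA synthetase, was lost without ABT replicate 1 (0.076) or 3 (0.086) or Comb replicate 2 (0.11) or 3 (0.078).

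In mitochondria AARS2 (-0.76, SE 0.08, limma adjusted p = 1.5e-05), LARS2 (-0.75, 1.3e-05), FARS2 (-0.66), TARS2 (-0.48), PARS2 (-0.48), MARS2 (-0.37), CARS2 (-0.31) and EARS2 (-0.31, 0.020) were lower in Comb than in ABT. EARS2, the glutamyl enzyme, lost its call without ABT replicate 2 (0.056), ABT replicate 3 (0.053) or Comb replicate 2 (0.055). RARS2 (0.17), HARS2 (0.12), IARS2 (0.09) and NARS2 (0.03) were the mitochondrial genes with a difference above 0, none of them called; with the GC and length trend removed, RARS2, IARS2 and NARS2 were below 0.

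Adding venetoclax to eliglustat (Comb against ELI) changed few members: AARS1 and GARS1 fell, 2 of 19, beside 9.55% of all genes (3.03% higher and 6.52% lower). No cytosolic gene rose and no mitochondrial gene was called with limma or with voom; at an unadjusted p under 0.05, 3 cytosolic and 1 mitochondrial gene were lower. GARS1, glycyl-tRNA synthetase (chr7:30594681-30634033), measured 11.0, 11.1 and 11.9 FPKM in DMSO, 10.6, 10.3 and 10.7 FPKM in ELI, 12.1, 12.2 and 12.9 FPKM in ABT and 8.94, 8.46 and 8.74 FPKM in Comb. The 4 groups did not overlap, in the order Comb, ELI, DMSO and ABT from low to high. The difference of Comb from ELI was -0.25 (SE 0.06, limma adjusted p = 0.018), a call lost without ELI replicate 1 (0.064), ELI replicate 3 (0.084), Comb replicate 2 (0.09) or Comb replicate 3 (0.07).

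AARS1, cytosolic alanyl-tRNA synthetase (chr16:70252295-70289543), measured 23.8, 32.0 and 27.4 FPKM in DMSO, 23.5, 25.7 and 25.0 FPKM in ELI, 29.2, 30.1 and 33.1 FPKM in ABT and 20.0, 19.2 and 19.6 FPKM in Comb. Comb lay below all other libraries, and ELI overlapped DMSO. The difference of Comb from ELI was -0.32 (SE 0.09, limma adjusted p = 0.048). The call was lost in 12 of 21 alternative settings: without DMSO replicate 3 (0.07), without ELI replicate 1 (0.076), 2 (0.15) or 3 (0.15), without ABT replicate 1 (0.054), 2 (0.073) or 3 (0.054), without Comb replicate 1 (0.11), 2 (0.16) or 3 (0.14), with median-of-ratios scaling (0.055) and with no filter on low values (0.074). Without the 4 libraries numbered 1 it stayed called (-0.37, 0.0082), and MARS1 (-0.26, 0.020), YARS1 (-0.22, 0.045) and AARS2 (-0.35, 0.014) were then called lower and EPRS1 (0.38, 0.038) higher, beside 15.5% of all genes.

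Whether eliglustat acted differently with and without venetoclax was tested as (Comb minus ABT) minus (ELI minus DMSO), in which 5.34% of all genes passed, 1.68% with a positive and 3.67% with a negative value. GARS1 (-0.37, SE 0.08, limma adjusted p = 0.022) and MARS1 (-0.47, SE 0.11, 0.024) passed, 2 of 19, and no mitochondrial gene did with limma or voom (2 were negative at an unadjusted p under 0.05). MARS1, methionyl-tRNA synthetase of the cytosol (chr12:57475445-57517569), measured 21.8, 26.5 and 25.1 FPKM in DMSO, 23.4, 24.6 and 24.4 FPKM in ELI, 27.7, 29.5 and 31.1 FPKM in ABT and 21.3, 19.7 and 21.0 FPKM in Comb. ELI lay within the range of DMSO, ABT was above DMSO and Comb below it. The 95% interval of the interaction was -0.71 to -0.24 for MARS1 and -0.55 to -0.19 for GARS1. Values of GARS1 in this test without a library were 0.056 (ELI replicate 1), 0.077 (ELI replicate 3), 0.055 (ABT replicate 2), 0.064 (ABT replicate 3), 0.082 (Comb replicate 2) and 0.066 (Comb replicate 3) as adjusted p. Those of MARS1 were 0.069 (ELI replicate 2), 0.075 (ELI replicate 3), 0.068 (ABT replicate 2), 0.071 (ABT replicate 3), 0.05 (Comb replicate 1), 0.084 (Comb replicate 2) and 0.061 (Comb replicate 3). Without the 4 libraries numbered 1, 2 cytosolic genes were positive and 4 negative and 1 mitochondrial gene negative, beside 18.1% of all genes.

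From the values as deposited, the ratio of summed cytosolic to summed mitochondrial FPKM was higher in both groups that had eliglustat. Summed FPKM of the 19 cytosolic genes was 660 ± 14.3 for DMSO, 665 ± 16.7 for ELI, 695 ± 19.0 for ABT and 672 ± 4.58 for Comb (SD, n = 3). For the mitochondrial genes it was 121 ± 1.69, 110 ± 0.956, 129 ± 1.16 and 112 ± 2.83 in the same order. The ratio of the sums ran from 5.26 to 5.61 in DMSO and ABT libraries and from 5.83 to 6.21 in ELI and Comb libraries, with no overlap. Sums are led by the genes of high FPKM and depend on the gene lengths used. Pairs of genes for the same amino acid were therefore also set side by side.

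Of 16 pairs, the cytosolic over mitochondrial ratio of FPKM was above DMSO in every ELI library for 9. It was below for 1 (HARS1 over HARS2) and overlapped for 6, and without the pair of SARS2 it was above for 8 of 15. EPRS1 and FARS2 each stand in 2 pairs, and no share was counted over pairs of other genes. The ratios were not taken with the GC and length trend removed, and partners can differ in GC content (LARS1 41.5%, LARS2 50.8%). With that trend removed the cytosolic and mitochondrial median differences were -0.07 and -0.18 for ELI against DMSO. They were -0.12 and -0.09 for Comb against DMSO and -0.29 and -0.28 for Comb against ABT. In ABT against DMSO 15 pairs overlapped and CARS1 over CARS2 was below. In Comb the ratio was above DMSO for 9 and below for 2 pairs, and above ABT for 10 and below for 3. LARS1 over LARS2 was 4.29 ± 1.26 for DMSO, 8.44 ± 1.11 for ELI, 3.26 ± 0.680 for ABT and 9.70 ± 0.759 for Comb (SD, n = 3). WARS1 over WARS2 was 8.74 ± 2.44, 14.0 ± 2.16, 10.3 ± 0.517 and 13.6 ± 0.771 in the same order. Both ratios separated the groups with eliglustat from those without it in every library. MARS1 over MARS2 went the other way between the single drug and the combination: 2.56 ± 0.132 for DMSO, 2.89 ± 0.142 for ELI, 2.44 ± 0.117 for ABT and 2.27 ± 0.0244 for Comb.

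**Figure D3:**
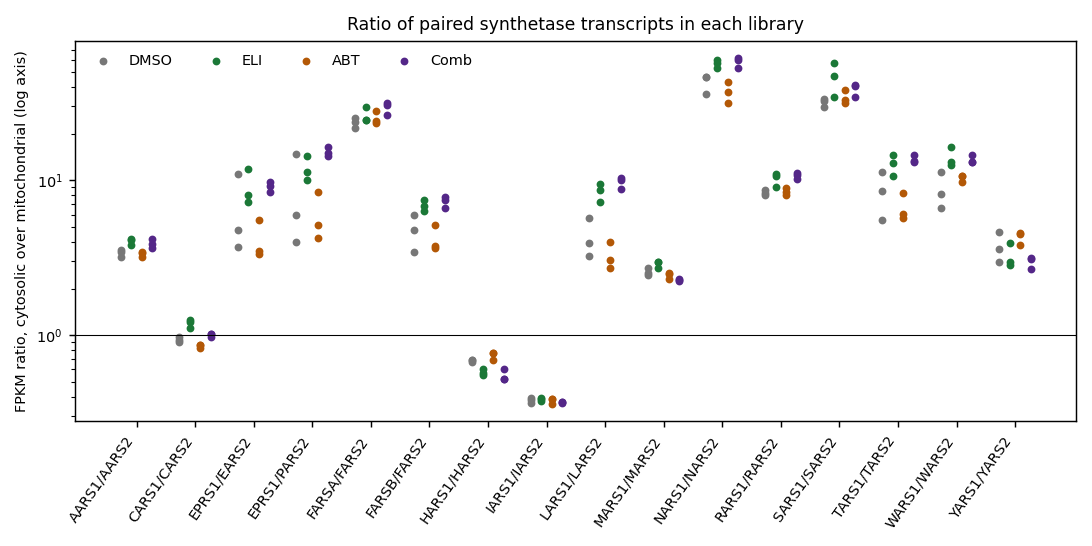
FPKM of the cytosolic gene divided by that of the mitochondrial gene for the same amino acid (vertical log axis) in each library (points, coloured by group) for 16 pairs; EPRS1 and FARS2 appear in 2 pairs each. LARS1/LARS2 and WARS1/WARS2 are higher in all ELI and Comb libraries than in all DMSO and ABT libraries, and HARS1/HARS2 is lower.

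Differences among the members ran with GC content. Over the 34 tested genes Spearman's rho between the GC content of the longest coding transcript and the log2 difference was -0.71 for ELI against DMSO, 0.67 for ABT against DMSO, -0.72 for Comb against DMSO, -0.76 for Comb against ABT and -0.32 for Comb against ELI. It was -0.66 for the interaction. Over all tested genes with known GC content rho was -0.48, 0.66, -0.38, -0.54, -0.06 and -0.5 in the same order. Apart from Comb against ELI, a gradient of the same direction was thus present across all genes and was not particular to the synthetases. These are descriptions over genes that share their libraries. VARS1 (62.6% GC), FARSA (60.3%) and AARS2 (59.3%) were among the lowest in Comb against ABT, and RARS1 (41.4%), LARS1 (41.5%) and EPRS1 (43.2%) among the highest. WARS1 had 51.8% GC and FARSB 41.6%. The median GC content was 48.6% for the cytosolic, 50.8% for the mitochondrial and 48.7% for all tested genes.

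When the trend on GC content and gene length was removed from each library, rho over the 34 genes was -0.48, 0.05, -0.46, -0.40, -0.31 and -0.27 in the same order. In Comb against ABT, 6 cytosolic genes were then higher and 11 lower, and 1 mitochondrial gene higher and 11 lower, beside 68.1% of all genes. LARS1 kept its call at 0.14 (limma adjusted p = 0.014), a smaller difference than 0.59, while NARS1 stood at 0.53 (0.00015) and VARS1 at -0.78 (1.1e-07). Differences also shrank by more than 1.5 times for RARS1 (0.27), TARS1 (0.32), QARS1 (-0.31), FARSA (-0.41), TARS2 (-0.29), PARS2 (-0.31) and CARS2 (-0.18), all still called, and HARS1 moved away from 0 to -0.43. WARS1 was called higher (0.31, limma adjusted p = 0.0009), as was HARS2 (0.21, 0.0049). In mitochondria RARS2 (-0.25, 0.0016), NARS2 (-0.28, 0.0065) and WARS2 (-0.39, 0.0005) were called lower, the first 2 with the opposite sign to the deposited values. FARSB (-0.40, 2.5e-05) and IARS1 (-0.29, 4.9e-05), not called from the values as deposited, were called lower, IARS1 with its sign turned. For ELI against DMSO the removal left LARS1 at 0.18 (0.0057), AARS2 at -0.23 (0.0048), FARSA at -0.23 (0.00068) and TARS2 at -0.18 (0.01), all called, and SARS2 at -0.12 (0.30), not called. For Comb against DMSO it left LARS1 at 0.25 (0.00035), QARS1 at -0.25 (0.0012), FARSA at -0.19 (0.0017), TARS2 at -0.25 (0.00057) and MARS1 at -0.15 (0.012), all called. In ABT against DMSO it gave KARS1 (0.19), FARSB (0.23), MARS1 (0.20), FARSA (0.22), IARS1 (0.17), VARS1 (0.24) and MARS2 (0.31) as higher, with limma adjusted p from 0.014 to 0.037 and 6.37% of all genes called. For the interaction GARS1 (-0.42, 0.0033), MARS1 (-0.40, 0.00071), AARS1 (-0.42, 0.004), YARS1 (-0.32, 0.015), FARSB (-0.27, 0.034) and AARS2 (-0.32, 0.017) passed, beside 17.1% of all genes. The part of GC content in the differences as deposited was not tested beyond these values.

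Groups of members also moved with this removal. The medians of the cytosolic and mitochondrial genes were -0.07 and -0.18 for ELI against DMSO, where 4 cytosolic genes were higher and 5 lower and 9 mitochondrial genes lower, beside 47.3% of all genes. For Comb against DMSO, 5 cytosolic genes were higher and 10 lower, and 1 mitochondrial gene higher and 6 lower, beside 60.5% of all genes. For Comb against ABT the medians were -0.29 and -0.28, where the deposited values gave -0.11 and -0.31, so that the gap between the compartments closed. The markers of the line gave 5 higher and 3 lower under eliglustat, beside 47.3% of all genes. In Comb against ABT they gave 6 higher and 2 lower, beside 68.1%.

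**Figure D4:**
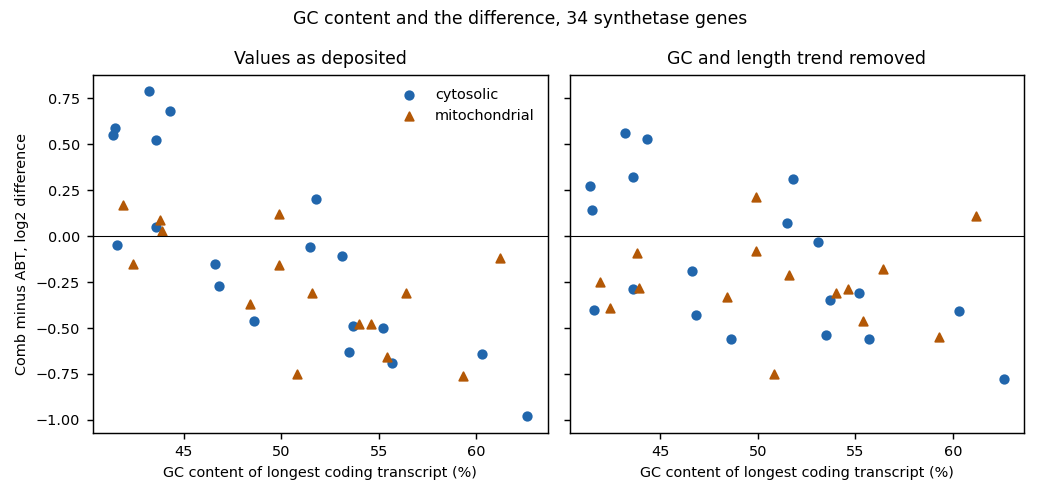
Log2 difference of Comb from ABT (vertical axis) against GC content in percent (horizontal axis) for the 34 tested synthetase genes, cytosolic as circles and mitochondrial as triangles, from the deposited values (left) and after removal of the GC and length trend in each library (right). Spearman's rho is -0.76 on the left and -0.40 on the right.

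Of the 7 cytosolic enzymes of the multi-synthetase complex, EPRS1, IARS1, KARS1, LARS1, MARS1, QARS1 and RARS1, 1 rose and 1 fell under eliglustat (36.1% of all genes called), and 3 rose and 3 fell in Comb against ABT (35.4% of all genes higher and 31.7% lower). Among the scaffolds AIMP1 rose (0.90, SE 0.18, limma adjusted p = 0.0011) and EEF1E1 fell (-0.42, SE 0.12, 0.0097) in Comb against ABT, and AIMP2 differed by -0.04 (0.73). By fold class, mitochondrial class II enzymes had a median of -0.48 (4 of 7 lower) and class I of -0.23 (4 of 8 lower) in Comb against ABT. For cytosolic class II and class I the medians were -0.15 (2 higher and 5 lower of 9) and -0.03 (3 higher and 4 lower of 10), against 0.02 for all genes. With the GC and length trend removed the medians were -0.29 and -0.23 for mitochondrial class II and class I, and -0.40 and -0.16 for cytosolic class II and class I.

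Genes that act next to the synthetases moved in both directions, as did all genes in Comb against ABT (67.2% called). Of 8 genes of cytosolic tRNA delivery and export, 2 rose and 3 fell in Comb against ABT, with higher EEF1A1, which carries charged tRNA to the ribosome (0.48, limma adjusted p = 2.7e-05), and XPOT, a tRNA exporter (0.67, 0.00063), and lower XPO5 (-0.42, 0.00069) and EEF1D (-0.37, 0.0027). Of 15 genes of mitochondrial transamidation, formylation and elongation, 4 rose and 4 fell, with higher MTO1, a tRNA modification enzyme (0.92, 3.1e-05), and MTRF1L (0.66, 0.00048) and lower TUFM, the mitochondrial elongation factor (-0.67, 0.00041), and GATB, a subunit of the glutamyl-tRNA amidotransferase (-0.42, 0.00015). Their medians were 0.18 and 0.05. With the GC and length trend removed the mitochondrial list gave 4 higher and 9 lower in Comb against ABT (68.1% of all genes called), and under eliglustat 1 higher and 5 lower (47.3%) in place of 2 and 2 (36.1%). Of 2 tested synthetase-like and trans-editing genes, DTD2 rose in Comb against DMSO (0.22, limma adjusted p = 0.037), where none was called with the trend removed.

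Other genes known as ATF4 targets moved in both directions. Of 27 tested, 9 rose and 7 fell under eliglustat, beside 36.1% of all genes, and 10 rose and 15 fell in Comb against ABT, beside 67.2%, with a median of -0.27. None was called under venetoclax, but 5 were called higher there with the GC and length trend removed, beside 6.37% of all genes. In Comb against ABT the cystine transporter gene SLC7A11 (1.87, limma adjusted p = 5e-07) and the eIF2alpha phosphatase subunit gene PPP1R15A (1.02, 1.8e-06) rose, and the serine synthesis genes PHGDH (-1.81, 6.2e-08) and PSAT1 (-1.25, 2.6e-08) fell. Mean levels of PHGDH for DMSO, ELI, ABT and Comb were 14.9, 8.69, 16.7 and 4.01 FPKM, and those of PSAT1 were 92.3, 74.7, 106.0 and 44.1 FPKM. In the interaction, where GARS1 and MARS1 passed, 2 ATF4 targets were positive and 4 negative, beside 5.34% of all genes, and 1 was positive and 10 negative with the trend removed, beside 17.1%. The 4 negative ones were PHGDH (-1.11, 0.00088), PSAT1 (-0.95, 0.00011), SHMT2 (-0.59, 0.041) and TRIB3 (-0.59, 0.029). SHMT2 and TRIB3 were added after their values were seen, and the 2 positive targets are given no values for this test. The 4 names therefore do not describe the list, and a link to GARS1 and MARS1 was not tested. Of 15 interferon gamma response genes set beside WARS1, 5 rose and 7 fell under eliglustat, beside 16.4% higher and 19.8% lower of all genes; in Comb against ABT HLA-DRA (1.68, 3.6e-09) and the class II transactivator CIITA (1.04, 1.2e-07) rose and the immunoproteasome gene PSMB9 fell (-0.70, 2.1e-05), while GBP2 fell in Comb against DMSO (-0.93, 8.7e-06).

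Among the genes with printed promoter windows, GARS1, MARS1 and AARS1 fell and NARS1 and TARS1 rose in Comb against ABT. IARS1 (0.05), CARS1 (-0.11) and YARS2 (-0.16) did not pass. In that comparison 35.4% of all genes were higher and 31.7% lower. Members with a window but no match were called there too. EPRS1 and RARS1 rose, and FARSA, QARS1, HARS1, KARS1, LARS2, FARS2, TARS2, PARS2, MARS2, CARS2 and EARS2 fell. VARS1, YARS1, LARS1 and AARS2, which moved in that comparison, had no window in the promoter table.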

How the data were processed

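The deposited table holds values per Ensembl gene and library, which its column headers label fpkm. No source used here names the aligner, the counter, the build or the annotation. Of 20036 genes, 20011 had a symbol in the name table. Once scaled for the depth of the libraries, the values of a gene are whole multiples of a step for that gene. All 16361 genes above 0 (100.0%) gave whole reads within a tolerance that started at 0.001 and widened with the reads of the gene. Groups and replicate numbers come from the sample titles.

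The 9959 genes that reached 1 FPKM in 3 or more libraries were tested. R 4.3.3 with limma 3.58.1 was used on log2(FPKM + 1), with 4 group means over all 12 libraries and trended, robust moderation. Benjamini-Hochberg adjustment ran over the 9959 genes of a contrast at 0.05; intervals are 95%. The steps were tested on simulated data. The members and lists were chosen with earlier results of these data known. Values in every library were due for the 6 cytosolic and 6 mitochondrial genes with the smallest adjusted p, WARS1 and members called in the interaction; up to 4 genes of each other list were named likewise, SHMT2 and TRIB3 after their values were seen. VARS2 was not tested. One gene of the marker list is not reported here.

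Whether replicate numbers pair libraries was checked from correlations, across genes, of deviations from group means. Between DMSO and ELI they ran from 0.24 to 0.82, between DMSO and ABT from 0.39 to 0.88, and between ELI and ABT from 0.26 to 0.74. All were over 0.1, so same-numbered libraries of these 3 groups deviated together. No label states a pairing, and the deviations also ran with GC content. A pairing and a technical pattern shared along GC content cannot be told apart here. With Comb they ran from -0.40 to 0.16, without such a pattern. Other settings tried were a pseudocount of 0.1, no filter, scaling by median of ratios, the block, the 6 libraries compared alone, removal of a loess trend (span 0.5) on GC content (GENCODE 29, 99.8% of genes) and gene length, voom on recovered reads, leaving out each library or the 4 numbered 1, and dropping GARS1 and KARS1. The block in 9 libraries and the counts without SARS2 were added after seeing the data.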

Additional observations from a re-analysis of the deposited data

Results flagged for a closer look

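In the interaction in limma 2 of 19 cytosolic members and no mitochondrial member were called, a share near the 5.34% of all genes. The GARS1 call was lost in 6 of 20 alternative settings and the MARS1 call in 7 of 20. AARS1 had a value of similar size (-0.48, limma adjusted p = 0.057) and was not called. The difference between the effects was -0.37 for GARS1 and -0.47 for MARS1 on the log2(FPKM + 1) scale. Eliglustat differed from DMSO by -0.09 for GARS1 and -0.02 for MARS1, and Comb from ABT by -0.46 and -0.49.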

How the results depend on the processing

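For the 56 called results of members, 1200 comparisons with an alternative setting left 1090 with the same direction and side of the threshold, 110 with the direction only and none reversed; 36 of the 56 held in every setting. For the 148 results not called, 3186 comparisons gave 162 changes of sign without a call and 15 with one, the latter all under removal of the GC and length trend with or without the block, in RARS2, NARS2, IARS1 and FARSB. Counts of called genes were less stable. The share of all genes was not counted for the 6 libraries alone, the trend removal with the block, or fits without 1 library. It was not counted for median-of-ratios scaling or for no filter either, so counts in these settings have no background beside them. For ELI against DMSO, where the main counts were 7 cytosolic and 6 mitochondrial, the 6 libraries alone gave 2 and 3, the trend removal with the replicate block 12 and 10, that with 9 libraries 12 and 11, and omission of the libraries numbered 1 gave 11 cytosolic. For ABT against DMSO (0 and 0) the trend removal gave 6 and 1, with the replicate block 9 and 1, the block in 9 libraries 5 and 1, and both in 9 libraries 9 and 2. For Comb against ELI (2 and 0), median-of-ratios scaling, no filter and dropping GARS1 and KARS1 each gave 1 cytosolic gene, omission of the libraries numbered 1 gave 5 and 1, and the 6 libraries alone, the trend removal, and this with the block each gave 1 mitochondrial gene. For the interaction (2 and 0), the replicate block gave 4 cytosolic genes, the trend removal 5 and 1, both together 7 and 2, omission of the libraries numbered 1 gave 6 and 1, dropping GARS1 and KARS1 gave 1 cytosolic and median-of-ratios scaling 1 mitochondrial gene. The cause was not tested. Leaving out 1 library gave 4 to 11 cytosolic and 3 to 9 mitochondrial genes for ELI against DMSO, 0 to 3 and 0 to 1 for ABT against DMSO, 9 to 13 and 4 to 7 for Comb against DMSO, 12 to 15 and 7 to 9 for Comb against ABT, 0 to 3 and 0 to 1 for Comb against ELI, and 0 to 4 and 0 to 1 for the interaction. Only 1 form of the trend removal was tried, and 3 libraries a group limit what can be called.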
